A study of Mus musculus with 12 samples.

Results

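The genes described here are 40 antioxidant and Nrf2 defence genes in mouse liver: the transcription factor Nfe2l2 (Nrf2) and its inhibitor Keap1, and the enzymes of glutathione, thioredoxin, peroxide, superoxide, haem, quinone, iron and NADPH metabolism that cells use against oxidants. They were chosen by name, because molecular hydrogen (H2) has been proposed to act as an antioxidant, and each was matched to the array through the RefSeq record of its probes. All 40 were found among the 20297 gene symbols on the array, through 49 of its 39429 probes, and where a gene had more than 1 probe the one with the highest mean signal stood for it. Of these 40 probes, 38 gave a signal above background on every one of the 12 arrays, for control and treated RNA alike. The spot of Sod1 was set aside as unreliable by the scanner software on 1 array, which left it untested at 14 days, and the probe of Slc7a11, the cystine transporter that feeds glutathione synthesis, was not well above background on any array in either channel and was not tested.

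Each array compared the liver RNA of H2-treated mice with that of control mice, and there were 3 arrays for each of 4 treatments. All animals, treated and control, were male and labelled as 8 weeks old, of the db/db strain (named BKS.Cg-+Leprdb/+Leprdb/Jcl), and lack a functional leptin receptor and become obese and diabetic. For 1, 3 or 7 days the treated mice received MgH2, a powder that releases H2 in the stomach, by gavage once a day, at 0.9 mg/kg in the labels (the study's methods give other doses), and their controls received Mg(OH)2 in the same way. For 14 days the treated mice drank H2-water (0.8 mM H2) and their controls drank the same water after degassing. The methods describe 9 mice for each group, whose RNA was combined in 3 pools of 3 mice, so an array compares a pair of pools, and no non-diabetic mouse was among these arrays.

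Nrf2 is a transcription factor that Keap1 holds in the cytoplasm and marks for degradation. When oxidants or electrophiles modify Keap1, Nrf2 accumulates, enters the nucleus with a small Maf protein and binds antioxidant response elements in the promoters of genes such as Nqo1, Gclm, Gclc, Srxn1, Txnrd1 and Hmox1. The liver holds high levels of these enzymes because it handles drugs, haem, iron and the peroxides of fatty acid oxidation.

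To show what such an element looks like in these genes, the promoter windows of RefSeq (GRCm38.p6, 250 bases before to 50 after each transcription start) were searched on both strands for the element's core, TGACNNNGC, whose first letters are also those of AP-1 and cAMP response sites. A window was listed for 34 of the 40 genes. Gclc, Gsr, Hmox1, Msra, Prdx6 and Sod3 had no entry. The core stood in 10 of the 44 windows of these genes (22.7%) and in 12.4% of all 32851 windows, and a match is a description of the letters, not a site shown to be used. The 7 shown first are Gclm, Srxn1 and Txnrd1, which are textbook Nrf2 targets, and Prdx1, Pgd, Ucp2 and G6pdx, whose RNA was lower after 7 days of MgH2. Nfe2l2, Mt2 and Sod1 held the core as well. By the test described below, 4 of the 10 genes with the core were called at 7 days, 0 higher and 4 lower. Of the 24 with a window but no core, 10 were called, 6 higher and 4 lower. Of all probes, 15.3% were called higher and 14.2% lower at that time, and a link between core and call was not tested. Each line runs 5′ to 3′ on the strand that reads TGAC, with the core in capitals.
Gclm (chr3:122245415-122245439): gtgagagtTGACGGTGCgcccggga
Srxn1 (chr2:152105544-152105568): tctcactcTGACCTAGCtgcccact
Txnrd1 (chr10:82859106-82859130): tgtcagaaTGACAAAGCaaaaatcc
Prdx1 (chr4:116685458-116685482): acgggggaTGACTCAGCgctttccc
Pgd (chr4:149166063-149166087): ttcagagcTGACATTGCactgatcg
Ucp2 (chr7:100493284-100493308): gcgtggcgTGACGAGGCggagccag
G6pdx (chrX:74428921-74428945): gtgtgcttTGACTGAGCtgacccgc

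Every value below is a log2 ratio of treated over control on an array, from the processed Cy5 (treated) and Cy3 (control) signals, and a mean is over 3 arrays. A gene is called changed where limma's test over all 12 arrays, with Benjamini-Hochberg adjustment over every probe tested, gave an adjusted p under 0.05. The dyes were never swapped, so a probe's own dye bias stays in each ratio and cannot be told apart from a treatment effect at a single time. It cancels in a difference between times. As liver is a mixture of cells, fewer cells of a type and less RNA per cell cannot be told apart.

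Across the 12 arrays, between 51.8% and 56.5% of spots were above background in both channels, the summed Cy5 signal was 1.009 to 1.029 times the Cy3 sum, and no spot was saturated. All 6 hepatocyte markers examined (such as Alb and Ttr) were on the array, and 5 of them passed in both channels on every array. The log2 ratio of their summed signals was 0.022 to 0.10 at 1 day, 0.14 to 0.21 at 3 days, 0.18 to 0.31 at 7 days and -0.0035 to 0.044 at 14 days. Markers of Kupffer cells and leukocytes, 9 of 10 on the array and none of these 9 below background on any array, gave -0.30 to -0.021, -0.40 to -0.31, -0.45 to -0.34 and -0.18 to 0.20 at the same times. Red blood cell markers, 6 of which were above background on every array, varied between pools in both directions, from -0.82 to 0.64 at 7 days.

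Changes in the defence genes were small, in both directions, and most numerous after 3 and 7 days of MgH2. At 1 day 5 of 39 genes were called (12.8%, against 9.38% of all probes tested), 1 higher (5.15% of all probes) and 4 lower (4.23%). At 3 days 13 were called (33.3%, against 23.4%), 6 higher (12.3%) and 7 lower (11.1%). At 7 days the number was 17 (43.6%, against 29.5%), with 8 higher (15.3%) and 9 lower (14.2%). After 14 days of H2-water only 1 of 38 was called (2.63%, against 8.83%), and it was higher (4.92% of all probes, with 3.9% lower). By other settings 0 to 4 were called at that time, and 6 genes had an unadjusted p under 0.05. The median log2 ratio of the tested genes was -0.032, 0.042, -0.031 and 0.014 in that order, beside -0.0033, 0.0022, 0.0059 and -0.0049 over all probes tested, so the genes did not shift together in one direction. In all, 20 of the 40 were called at one or more times.

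**Figure D1:**
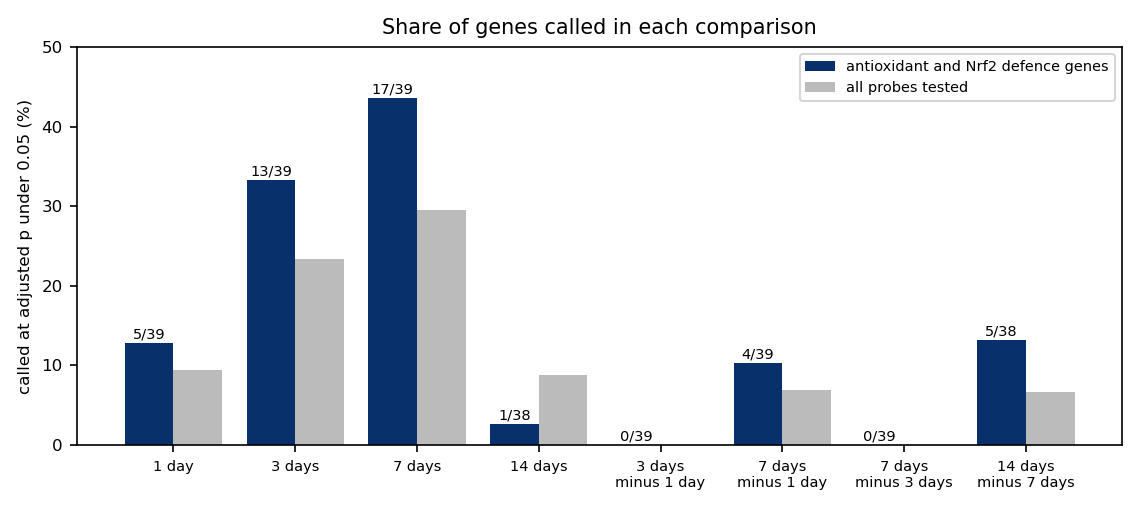
Percentage of antioxidant and Nrf2 defence genes (dark bars, with the count called over the count tested) and of all probes tested (grey bars) called at an adjusted p under 0.05 by limma, for the 4 treatments against their controls and for 4 differences between times. The dark bars reach 33.3% at 3 days and 43.6% at 7 days, beside 23.4% and 29.5% of all probes.

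The 3 MgH2 comparisons are not independent of each other, because the control channels of arrays with the same replicate number deviated together. With the replicate number as a block over the 9 MgH2 arrays, 9 genes were called at 1 day, 18 at 3 days and 19 at 7 days. That block takes the spread shared by same-numbered arrays out of the error. Its p-values at a single time therefore do not measure the full spread between pools. The direction split moved with the scaling: at 1 day 6 of 11 called genes were higher under normexp background correction with loess, and at 3 days 9 of 16 were higher under that correction but 4 of 14 after division of each channel by its total. No single left-out array removed the calls of Cat, Gpx3, Taldo1, Tkt and Ucp2 at 3 days, of Keap1, Hmox1, Hmox2, Cat, Mt1, Taldo1, Tkt and Ucp2 at 7 days, or of Cat at 14 days. All 5 calls of 1 day were lost without one array or another. Background correction by normexp with loess ended the calls of Keap1 and Gsr at 3 days and of Txnrd2 and Prdx1 at 7 days. Division by the channel totals ended those of Gsr and Sod2 at 3 days and of Txnrd2 at 7 days. With the mean of a gene's probes in place of the brightest one, Cat at 1, 3 and 7 days, Gsr at 3 days and Prdx1 at 7 days were no longer called. Without the filter on dim probes, the calls lost were Nqo1, Txn2, Taldo1 and Blvrb at 1 day, Keap1, Hmox1, Gsr, Sod2, Mt1 and Fth1 at 3 days, and Txnrd2 and Prdx1 at 7 days.

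**Figure D2:**
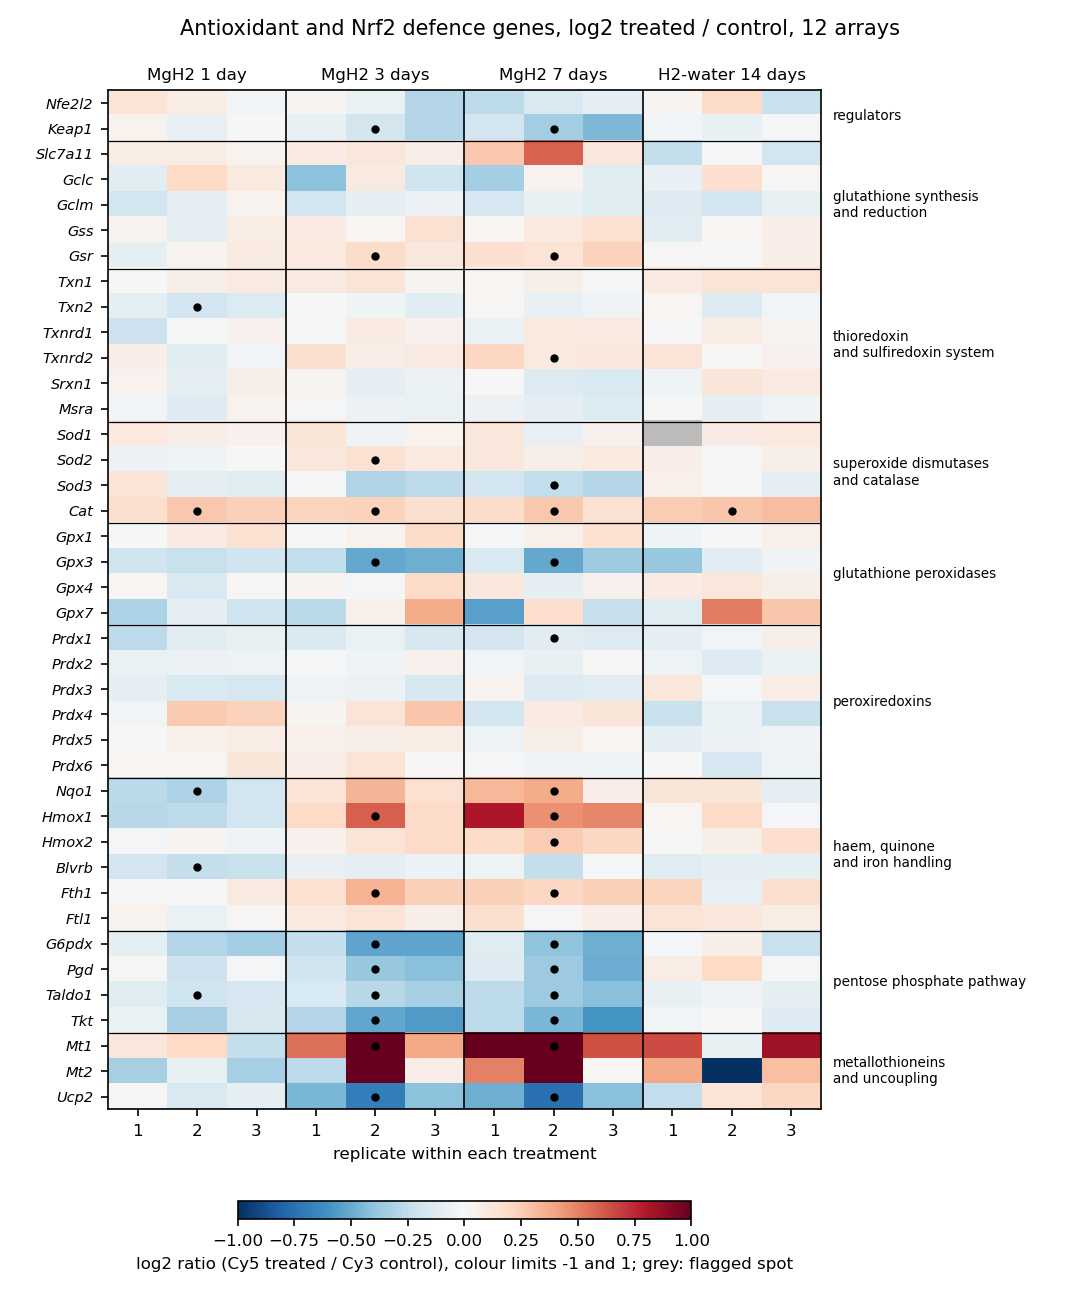
Log2 ratio of treated over control for each of the 40 genes (rows, grouped by role) on each of the 12 arrays (columns, by treatment and replicate). Red is higher and blue lower in treated liver, with colours limited at -1 and 1, grey is the Sod1 spot set aside, and a black dot marks a treatment in which limma called the gene. The pentose phosphate genes and Ucp2 are blue on all 6 arrays of 3 and 7 days, and Cat is red on all 12 arrays.

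Keap1, the adaptor that targets Nrf2 for degradation, was lower after MgH2. Its log2 ratios were 0.036, -0.079 and 0.0059 at 1 day, -0.075, -0.18 and -0.29 at 3 days, -0.19, -0.35 and -0.45 at 7 days, and -0.026, -0.075 and -0.02 at 14 days. All 6 arrays of 3 and 7 days were below 0, and the 7-day arrays did not overlap with those of 1 day or 14 days. The mean was -0.18 ± 0.108 (SD, n = 3) at 3 days (limma adjusted p = 0.0367) and -0.33 ± 0.133 at 7 days, a 1.26-fold lower level (adjusted p = 0.00186). Without replicate 2 or replicate 3 the 3-day call was lost. Nfe2l2 itself was not called at any time. Its ratios were 0.14, 0.074 and -0.026 at 1 day, 0.029, -0.069 and -0.29 at 3 days, -0.26, -0.15 and -0.086 at 7 days, and 0.026, 0.19 and -0.22 at 14 days. Its 7-day arrays were all below 0, with a mean of -0.17 ± 0.0884 (adjusted p = 0.144).

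Calls among the haem, quinone and iron genes were lower at 1 day and higher at 3 and 7 days, and Nqo1 was the gene called in both directions. Of 6 such genes, limma called 2 lower at 1 day, beside 4.23% of all probes. It called 2 higher at 3 days and 4 higher at 7 days, beside 12.3% and 15.3% of all probes. At 14 days it called 0, beside 8.83% of all probes, and 2 had an unadjusted p under 0.05. Hmox1, the inducible haem oxygenase that breaks haem into biliverdin, iron and carbon monoxide, had log2 ratios of -0.28, -0.26 and -0.19 at 1 day. They were 0.20, 0.60 and 0.19 at 3 days, 0.81, 0.46 and 0.49 at 7 days, and 0.022, 0.19 and -0.021 at 14 days. All 3 arrays of 1 day lay below 0 and all 6 arrays of 3 and 7 days above it, and the 7-day arrays were above every 14-day array. The mean of -0.24 ± 0.0442 (n = 3) at 1 day did not pass the test, 0.33 ± 0.237 at 3 days did (adjusted p = 0.0237; 0.052 with the replicate block over the MgH2 arrays), and 0.59 ± 0.191 at 7 days, 1.5-fold, did as well (adjusted p = 0.00125). Without replicate 2 the 3-day mean was 0.19 and no longer called. The second Hmox1 probe gave -0.22, 0.19, 0.31 and -0.01 at the 4 times and was called at 7 days alone.

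Nqo1, a quinone reductase and a classical Nrf2 target, had the same order. Its log2 ratios were -0.27, -0.31 and -0.19 at 1 day, 0.13, 0.34 and 0.15 at 3 days, 0.33, 0.37 and 0.065 at 7 days, and 0.12, 0.12 and -0.10 at 14 days. The 3 arrays of 1 day lay below 0 and below all others. It was called lower at 1 day, with a mean of -0.26 ± 0.0594 or 1.19-fold (adjusted p = 0.0456; 0.0517 with the replicate block over the MgH2 arrays), and higher at 7 days, 0.26 ± 0.166 or 1.19-fold (adjusted p = 0.0201). The 7-day call was lost without replicate 1 or replicate 2.

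Hmox2, the constitutive haem oxygenase, was higher at 7 days on all 3 arrays, with ratios of 0.18, 0.25 and 0.21 (mean 0.21 ± 0.0357, adjusted p = 0.00362). Earlier and later values were closer to 0, with -0.0096, 0.026 and -0.035 at 1 day, 0.045, 0.13 and 0.19 at 3 days and 0.0047, 0.056 and 0.17 at 14 days. Its second probe, at 0.12 on average at 7 days, was not called. Fth1, the ferritin heavy chain that stores iron, was higher at 3 days (0.15, 0.35 and 0.24, adjusted p = 0.0131) and at 7 days (0.24, 0.21 and 0.24, adjusted p = 0.0137). At 1 day Fth1 stood at -0.0064, 0.0017 and 0.086, and at 14 days at 0.22, -0.082 and 0.16. Ftl1, the ferritin light chain, was not called, although a further probe, which the newer annotation release assigns to it and the older one to another record, was called lower at 1 day (-0.18, adjusted p = 0.0276). Blvrb, a biliverdin reductase, was called lower at 1 day alone, where its ratios of -0.19, -0.24 and -0.22 were close together (mean -0.22 ± 0.0242, adjusted p = 0.0123). It lay below 0 on all 12 arrays, with -0.073, -0.10 and -0.058 at 3 days, -0.05, -0.24 and -0.017 at 7 days and -0.12, -0.10 and -0.088 at 14 days. Blvrb is abundant in red cells, whose markers had summed log2 ratios of -0.77 to -0.12 at 1 day, and the part of red cells in its result was not tested.

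**Figure D3:**
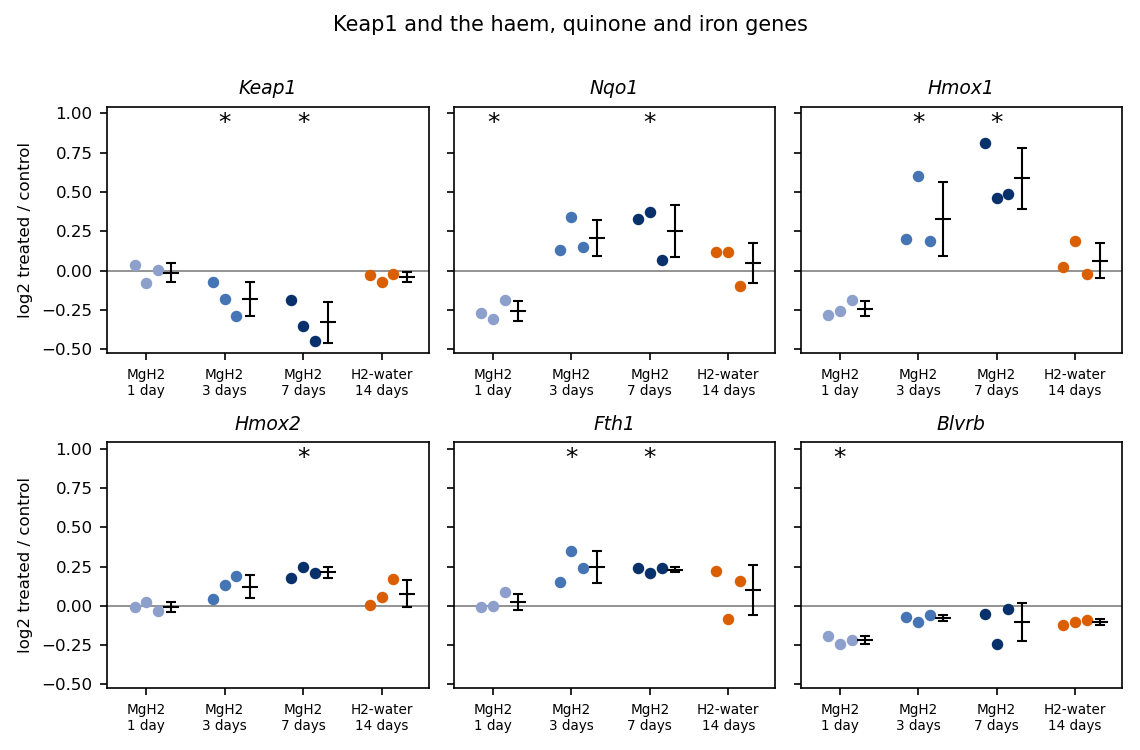
Log2 treated over control of Keap1, Nqo1, Hmox1, Hmox2, Fth1 and Blvrb for each treatment. Points are arrays in the order of their replicate number, the black mark is the mean with its SD (n = 3), and an asterisk marks a treatment in which limma called the gene. Hmox1 and Nqo1 lie below 0 on all 3 arrays of 1 day and above 0 on all 6 arrays of 3 and 7 days, while Keap1 lies below 0 on those 6.

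The pentose phosphate pathway, which supplies the NADPH that glutathione and thioredoxin reductases consume, was lower at 3 and 7 days in all 4 of its genes measured here. Its median log2 ratio was -0.17 at 1 day, -0.38 at 3 days, -0.34 at 7 days and -0.056 at 14 days, against medians of all probes that stayed within 0.0059 of 0. Limma called all 4 lower at 3 and 7 days, beside 11.1% and 14.2% of all probes. At 1 day only Taldo1 was called, and 0 were called at 14 days (limma, 0 at an unadjusted p under 0.05). All 4 genes were below 0 on every array of 3 and 7 days.

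G6pdx, the glucose-6-phosphate dehydrogenase that commits glucose to the pathway, had log2 ratios of -0.095, -0.29 and -0.34 at 1 day, -0.24, -0.53 and -0.53 at 3 days, -0.12, -0.40 and -0.49 at 7 days, and -0.015, 0.056 and -0.22 at 14 days. Replicate 1 was the least changed of the 3 at each of the MgH2 times. The mean was -0.44 ± 0.168 at 3 days (1.35-fold lower, adjusted p = 0.0067) and -0.34 ± 0.192 at 7 days (adjusted p = 0.0158), and under normexp with loess it was -0.25 and -0.17. Pgd, the next NADPH-producing step, gave 0.014, -0.21 and -0.018, then -0.20, -0.38 and -0.42, then -0.13, -0.36 and -0.50, and finally 0.075, 0.20 and -0.022 at 14 days. Its means of -0.33 ± 0.119 at 3 days and -0.33 ± 0.186 at 7 days were both called (adjusted p = 0.0124 and 0.00963).

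Tkt and Taldo1, transketolase and transaldolase, rearrange the pathway's sugars without making NADPH. Tkt had ratios of -0.063, -0.33 and -0.16 at 1 day, -0.29, -0.52 and -0.57 at 3 days, -0.26, -0.46 and -0.60 at 7 days, and -0.024, -0.0068 and -0.13 at 14 days. The 14-day arrays all lay above those of 3 and 7 days. Its mean was -0.46 ± 0.147 at 3 days, 1.38-fold lower (adjusted p = 0.00257), and -0.44 ± 0.169 at 7 days (adjusted p = 0.0021). Taldo1 was below 0 on all 12 arrays, with -0.12, -0.20 and -0.17 at 1 day, -0.15, -0.28 and -0.33 at 3 days, -0.26, -0.36 and -0.42 at 7 days, and -0.078, -0.034 and -0.088 at 14 days. It was called at 3 times, with means of -0.16 ± 0.0431 (adjusted p = 0.045), -0.26 ± 0.0933 (0.00338) and -0.34 ± 0.0822 (0.00052).

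Ucp2, a mitochondrial carrier held to limit superoxide formation, was the lowest of the 39 genes tested at both 3 and 7 days. Its log2 ratios were 0.015, -0.15 and -0.10 at 1 day, -0.46, -0.69 and -0.41 at 3 days, -0.49, -0.75 and -0.42 at 7 days, and -0.25, 0.14 and 0.21 at 14 days. The 6 arrays of 3 and 7 days did not overlap with the other 6. The means were -0.52 ± 0.149 (1.43-fold lower, adjusted p = 0.0046) and -0.55 ± 0.174 (1.47-fold lower, adjusted p = 0.00217). Ucp2 is expressed by macrophages as well as by hepatocytes of fatty liver. Of the 9 Kupffer cell and leukocyte markers on the array, 4 were called lower at 3 days and 6 at 7 days. The shares of all probes called lower were 11.1% and 14.2%, and the marker medians were -0.36 and -0.45. None of these markers was called higher, and the part of Kupffer cells and leukocytes in the Ucp2 result was not tested.

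**Figure D4:**
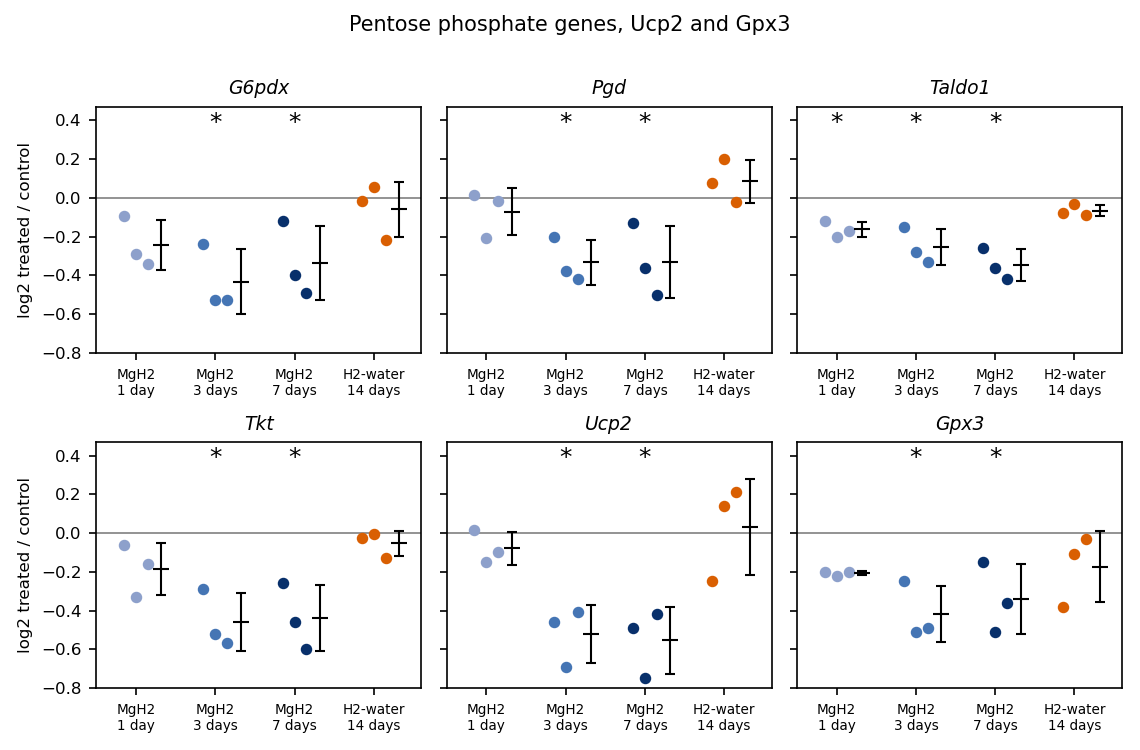
Log2 treated over control of the 4 pentose phosphate genes, Ucp2 and Gpx3 for each treatment. Points are arrays in the order of their replicate number, the black mark is the mean with its SD (n = 3), and an asterisk marks a treatment in which limma called the gene. All 6 genes lie below 0 on every array of 3 and 7 days, and the 14-day points of Pgd, Tkt and Taldo1 lie above all of those.

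Metallothioneins, small cysteine-rich proteins that bind zinc and copper and scavenge oxidants, gave the largest ratios of the set. Mt1 and Mt2 lie on the same strand of chromosome 8, with start sites 6471 bases apart. Their promoters are shown because these neighbours share one kind of regulatory element. Mt1 passed the test and Mt2 did not, although Mt2 averaged 0.31 at 3 days and 0.51 at 7 days. The SE of Mt2 was 0.395, against 0.22 for Mt1, and a difference between these genes was not tested. The 250 bases before each RefSeq start site (GRCm38.p6, plus strand, chr8:94178839-94179088 for Mt1 and chr8:94172368-94172617 for Mt2) follow, with the metal response core, TGCACNC or TGCGCNC on either strand, in capitals. Within these 250 bases the core occurs 1 time for Mt1 and 3 times for Mt2, and 25.7% of all promoter windows hold at least 1 match. Bases beyond the 250 shown were not counted, and the counts depend on the start site used. They are therefore not the number of such elements in either promoter, and cannot rank Mt1 against Mt2.
Mt1: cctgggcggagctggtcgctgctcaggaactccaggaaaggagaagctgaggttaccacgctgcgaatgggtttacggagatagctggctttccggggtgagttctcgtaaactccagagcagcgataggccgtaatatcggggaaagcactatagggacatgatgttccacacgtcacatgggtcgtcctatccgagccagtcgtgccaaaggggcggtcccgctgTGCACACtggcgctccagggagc
Mt2: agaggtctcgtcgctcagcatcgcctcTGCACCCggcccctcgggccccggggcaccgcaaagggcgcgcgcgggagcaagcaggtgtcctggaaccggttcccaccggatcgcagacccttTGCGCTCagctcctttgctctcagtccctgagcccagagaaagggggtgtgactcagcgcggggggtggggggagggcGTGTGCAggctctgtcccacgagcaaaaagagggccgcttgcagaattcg

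Mt1 had log2 ratios of 0.11, 0.20 and -0.24 at 1 day, 0.55, 1.44 and 0.39 at 3 days, 1.16, 1.25 and 0.64 at 7 days, and 0.65, -0.076 and 0.85 at 14 days. All 6 arrays of 3 and 7 days were above every array of 1 day. The mean was 0.79 ± 0.569 at 3 days (1.73-fold, adjusted p = 0.0273) and 1.02 ± 0.329 at 7 days (2.02-fold, adjusted p = 0.00746), and the 3-day call was lost without replicate 1 (0.92) or replicate 2 (0.47). At 14 days the mean of 0.47 ± 0.486 did not pass. Mt2 gave -0.33, -0.078 and -0.33 at 1 day, -0.26, 1.13 and 0.069 at 3 days, 0.50, 1.01 and 0.02 at 7 days, and 0.38, -1.81 and 0.30 at 14 days. It was not called at any time (adjusted p = 0.61 at 3 days and 0.36 at 7 days, SE 0.395). The value of -1.81 in replicate 2 of 14 days had no counterpart in Mt1, which stood at -0.076 on that array.

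The channels, set on one scale between arrays, show both sides of the Mt1 ratio. Relative to the mean control level of the MgH2 arrays, treated Mt1 lay at 0.30 to 0.38 at 1 day, 0.58 to 0.82 at 3 days and 0.76 to 0.87 at 7 days on the log2 scale. The control level ranged more widely, over 0.16 to 0.54, -0.62 to 0.19 and -0.43 to 0.12. Every control of 7 days lay below every control of 1 day, so both sides of the ratio moved between these times. The highest 3-day ratio of Mt1, 1.44 in replicate 2, was on the array with the lowest control level. Metallothionein genes also respond to glucocorticoids and fasting. Of 8 genes of that response, 3 were called higher at 3 days and 4 at 7 days (beside 12.3% and 15.3% of all probes), with 0 lower. At 14 days 0 were called higher and 1 lower (beside 4.92% and 3.9% of all probes). The log2 ratio of their summed signals was 0.24 to 0.42 at 3 days, 0.28 to 0.40 at 7 days and -0.65 to -0.13 at 14 days, and its part in the Mt1 result was not tested.

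**Figure D5:**
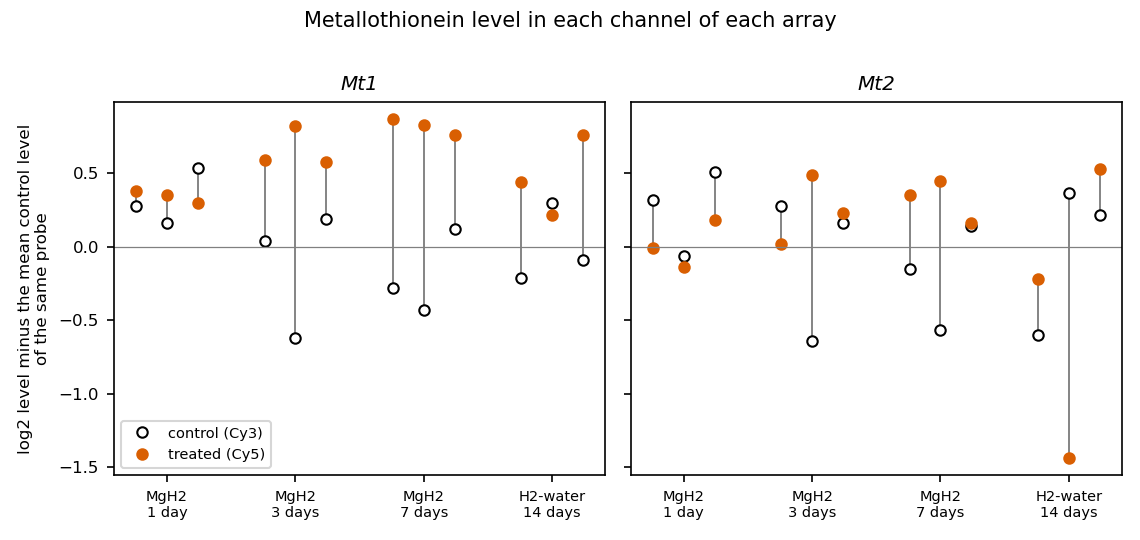
Level of Mt1 and Mt2 in the control (open) and treated (filled) channel of each array, as log2 difference from the same probe's mean control level over the MgH2 arrays or over the H2-water arrays. A grey line joins the channels of 1 array. Treated Mt1 lies between 0.58 and 0.87 on the 6 arrays of 3 and 7 days, the controls spread from -0.62 to 0.54 over the MgH2 arrays, and treated Mt2 drops to -1.44 in replicate 2 of 14 days.

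Catalase, the peroxisomal enzyme that splits hydrogen peroxide, was the only gene called at every time. Cat had log2 ratios of 0.16, 0.27 and 0.24 at 1 day, 0.22, 0.23 and 0.16 at 3 days, 0.18, 0.27 and 0.15 at 7 days, and 0.25, 0.28 and 0.31 at 14 days. All 12 were above 0, within 0.15 to 0.31. The means of 0.22 ± 0.0566, 0.20 ± 0.04, 0.20 ± 0.0645 and 0.28 ± 0.0288 had adjusted p-values of 0.00682, 0.00433, 0.00303 and 0.00189. They hardly differed between times (7 days minus 1 day: -0.019), so a dye bias of the probe and a lasting effect cannot be told apart. The second Cat probe, also above background on all arrays, averaged 0.067, -0.014, -0.024 and 0.13 and was not called at any time.

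Among the superoxide dismutases, Sod2, the mitochondrial enzyme, was called slightly higher at 3 days (0.11, 0.15 and 0.10, adjusted p = 0.0239). Its ratios were -0.057, -0.044 and 0.0056 at 1 day, 0.11, 0.055 and 0.10 at 7 days and 0.066, -0.02 and 0.058 at 14 days, so the 3-day arrays lay above those of 1 day. Sod3, the secreted enzyme, was called lower at 7 days (-0.19, -0.25 and -0.29, mean -0.24 ± 0.0504, adjusted p = 0.0185). It varied in sign at 1 day (0.13, -0.10 and -0.12), was below 0 on the 3-day arrays (-0.012, -0.30 and -0.26) and was near 0 at 14 days (0.047, -0.0025 and -0.10). Sod1, the cytosolic enzyme, was not called, with 0.10, 0.069 and 0.04 at 1 day, 0.12, -0.032 and 0.036 at 3 days, 0.11, -0.085 and 0.042 at 7 days, and 0.084 and 0.10 on the 2 usable arrays of 14 days.

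Of 4 glutathione peroxidases, 1 was called, at 3 and 7 days, beside 23.4% and 29.5% of all probes. Gpx3, the plasma form, was below 0 on all 12 arrays and had log2 ratios of -0.20, -0.22 and -0.20 at 1 day, -0.25, -0.51 and -0.49 at 3 days, -0.15, -0.51 and -0.36 at 7 days, and -0.38, -0.11 and -0.032 at 14 days. The 3-day mean of -0.42 ± 0.147 (1.33-fold lower, adjusted p = 0.00626) and the 7-day mean of -0.34 ± 0.181 (adjusted p = 0.0111) were called. Under normexp with loess the mean was -0.17 at 3 days and -0.19 at 7 days, both still called. Gpx1, the main cytosolic form of liver, did not pass at any time, with means of 0.076, 0.068, 0.061 and 0.0047, and its arrays ranged from -0.04 to 0.18. Gpx4 and Gpx7 were not called either.

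The 6 peroxiredoxins, which reduce peroxides with thioredoxin or glutathione, gave 1 call, at 7 days, when 29.5% of all probes were called. Prdx1 was called lower at 7 days (-0.19, -0.11 and -0.14, adjusted p = 0.0319), and lay at -0.26, -0.11 and -0.071 at 1 day, -0.15, -0.065 and -0.16 at 3 days and -0.094, -0.03 and 0.06 at 14 days. Its second probe was not called, with -0.10 at 7 days. Prdx4, the form of the endoplasmic reticulum, was among the highest means at 1 day (-0.024, 0.26 and 0.23) without passing the test, and gave 0.029, 0.13 and 0.28, then -0.18, 0.08 and 0.12, and then -0.22, -0.066 and -0.22 at the later times. One of 3 further Prdx6 probes was called lower at 1 day (-0.19, adjusted p = 0.03) where the brightest probe stood at 0.052, so the probes of this gene differed in sign.

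Neither subunit of the ligase that starts glutathione synthesis passed the test. Gclc, the catalytic subunit of the rate-limiting ligase, had log2 ratios of -0.11, 0.20 and 0.10 at 1 day, -0.41, 0.091 and -0.20 at 3 days, -0.34, 0.033 and -0.12 at 7 days, and -0.077, 0.17 and 0.011 at 14 days, with replicate 2 the highest each time. Gclm, its modifier subunit, gave -0.19, -0.093 and 0.037, then -0.19, -0.094 and -0.058, then -0.17, -0.071 and -0.12, and then -0.13, -0.19 and -0.071. It was below 0 on 11 of 12 arrays, with means of -0.08, -0.11, -0.12 and -0.13 and adjusted p-values of 0.311, 0.106, 0.081 and 0.117. With the replicate block over the MgH2 arrays, Gclc was called lower at 3 and 7 days (same means of -0.17 and -0.14) and Gclm at 7 days. The block leaves the spread shared by same-numbered arrays out of the error, and 1 Gclc array of each of these times lay above 0. Gsr, the reductase that regenerates glutathione, was called higher at 3 days (0.10, 0.18 and 0.11, adjusted p = 0.0409) and 7 days (0.17, 0.14 and 0.23, adjusted p = 0.00777). At 1 day it stood at -0.091, 0.029 and 0.093 and at 14 days at 0.01, -0.0043 and 0.067, and its second probe was called higher at 7 days as well (0.17, adjusted p = 0.0123).

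The thioredoxin system was likewise little changed, with 1 of 6 genes called at 1 day and 1 at 7 days. Of all probes, 9.38% and 29.5% were called at these times. Txn2, the mitochondrial thioredoxin, was lower at 1 day (-0.10, -0.19 and -0.14, adjusted p = 0.0481), and gave 0.0041, -0.046 and -0.11 at 3 days, 0.014, -0.078 and -0.033 at 7 days and 0.016, -0.13 and -0.027 at 14 days. Txnrd2, the mitochondrial reductase, was higher at 7 days (0.21, 0.10 and 0.11, adjusted p = 0.0346). Its other arrays read 0.069, -0.12 and -0.027 at 1 day, 0.16, 0.07 and 0.089 at 3 days and 0.13, 0.013 and 0.044 at 14 days. Both calls were lost without any one of the 3 arrays they rest on. Txnrd1 and Srxn1, the cytosolic reductase and sulfiredoxin and both textbook Nrf2 targets, were not called. Txnrd1 had -0.21, -0.012 and 0.045 at 1 day, -0.016, 0.083 and 0.046 at 3 days, -0.063, 0.10 and 0.092 at 7 days, and 0.0031, 0.077 and 0.024 at 14 days. Srxn1 had 0.033, -0.087 and 0.057, then 0.024, -0.10 and -0.056, then -0.005, -0.14 and -0.15, and then -0.042, 0.12 and 0.088.

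The 10 tested genes not described one by one (Gss, Txn1, Gpx4, Gpx7, Prdx2, Prdx3, Prdx5, Prdx6, Ftl1 and Msra) were not called at any time. Their means lay from -0.21 to 0.052 at 1 day, from -0.086 to 0.10 at 3 days, from -0.20 to 0.093 at 7 days and from -0.083 to 0.22 at 14 days, with Gpx7, a glutathione peroxidase of the endoplasmic reticulum, the lowest at 1 and 7 days and the highest at 14 days. The lowest adjusted p among them was 0.059, at 14 days.

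Differences between times, in which a probe's dye bias cancels, were then tested in the same limma fit. No gene was called between 3 days and 1 day (0 of 39, against 0.0208% of all probes, with 10 genes and 15.4% of all probes at an unadjusted p under 0.05). Ucp2 was called in that difference with the replicate block over the MgH2 arrays (-0.44, adjusted p = 0.0483). None was called between 7 and 3 days (0 of 39 and 0% of all probes, with 0 genes and 4.73% of probes at an unadjusted p under 0.05, and 0 genes with the block).

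Between 7 days and 1 day 4 of 39 genes were called (10.3%, against 6.95% of all probes). Hmox1 was higher at 7 days by 0.83 on the log2 scale, 1.78-fold (SE 0.124, adjusted p = 0.0122), Nqo1 by 0.51, 1.43-fold (SE 0.0974, adjusted p = 0.0186) and Hmox2 by 0.22 (SE 0.0565, adjusted p = 0.0457), and Keap1 fell by 0.32 (SE 0.0761, adjusted p = 0.0364). For Hmox1, Nqo1 and Keap1 the 3 arrays of 7 days did not overlap with the 3 of 1 day, and the same was true of Hmox2. These genes were picked by the test on the same arrays, so the lack of overlap adds no support to the calls. The Hmox1 call held without any one of the 6 arrays. The other 3 calls did not: 1 or 2 genes in all were called when an array was left out. The Hmox2 call was also lost under median centring, under normexp with loess and with the mean of its probes, and those of Keap1, Nqo1 and Hmox2 without the filter on dim probes. The second Hmox1 probe gave 0.53 (adjusted p = 0.0276) and the second Hmox2 probe 0.25 (adjusted p = 0.122).

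With the replicate number as a block over the 9 MgH2 arrays the count was 9. The added genes were Gclc at -0.21 (adjusted p = 0.0491), Txnrd2 at 0.17 (0.0489), Mt1 at 1.00 (0.0209), Taldo1 at -0.18 (0.0459) and Ucp2 at -0.47 (0.0155). No slide held arrays of both times, and with slide as a fixed block the 4 differences were 0.68 for Hmox1, 0.49 for Nqo1, 0.11 for Hmox2 and -0.10 for Keap1, none of them called. Within the slide that held all 1-day arrays and 1 of the 3-day arrays, 3 days minus 1 day was 0.44 for Hmox1, 0.38 for Nqo1, 0.052 for Hmox2 and -0.063 for Keap1, beside 0.57, 0.46, 0.13 and -0.17 over all arrays. All 4 differences were thus closer to 0 within the slide.

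H2-water for 14 days and MgH2 for 7 days differ in agent, route, duration, vehicle of the controls, mice and slide, which cannot be told apart. Of 38 genes 5 were called between them (13.2%, against 6.61% of all probes), all with values closer to 0 at 14 days. Hmox1 was lower at 14 days by a difference of -0.52 (SE 0.124, adjusted p = 0.037). Pgd was higher by 0.42 (SE 0.107, adjusted p = 0.0463), Taldo1 by 0.28 (SE 0.061, adjusted p = 0.0298), Ucp2 by 0.59 (SE 0.131, adjusted p = 0.031) and Keap1 by 0.29 (SE 0.0759, adjusted p = 0.04995). The Keap1 call was lost under normexp with loess and after division by the channel totals. No gene of the 38 was called after replicate 2 or 3 of either treatment was left out, 1 was called without replicate 1 of 14 days and 4 without replicate 1 of 7 days. The Hmox1 call was lost in all 6 of these fits, and those of Pgd, Taldo1, Ucp2 and Keap1 in 5 of the 6 each.

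Genes of the same pathway outside the set were counted in the same way, to be read against the shares of all probes called at 1, 3, 7 and 14 days. These shares were 5.15%, 12.3%, 15.3% and 4.92% higher, and 4.23%, 11.1%, 14.2% and 3.9% lower. Of 27 further Nrf2 targets, many of them phase II enzymes, 27 were tested at 1 and 3 days and 26 at 7 and 14 days. At 1 day 1 was called higher and 4 lower, among them the glutathione S-transferases Gsta1 at -0.46 (adjusted p = 0.0393) and Gstm4 at -0.50 (0.0112). At 3 days 7 were higher and 3 lower, with Gsta1 at 0.49 (adjusted p = 0.017), Gsta3 at 0.42 (0.00118) and the malic enzyme Me1, another source of NADPH, at -0.59 (0.0112). At 7 days 4 were higher and 4 lower, and at 14 days 2 higher and none lower, Gsta3 at 0.24 (adjusted p = 0.0327) and Ugdh at 0.23 (0.0342). Gsta1 was therefore low at 1 day and high at 3 days, the order of the Hmox1 and Nqo1 means, although Hmox1 was not called at 1 day nor Nqo1 at 3 days. Gstm1, Gstm3 and Gstm4, the others called lower at 1 day, were not called at 3 days (0.22, 0.01 and -0.019). Between 3 days and 1 day 0 of these 27 targets were called.

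Among 9 further regulators of the pathway, Rbx1, a subunit of the Keap1 ubiquitin ligase, was called higher at all 4 times (0.18, 0.25, 0.27 and 0.21) and Bach1, a repressor of Hmox1, at 3 and 7 days (0.28 and 0.24). As for Cat, a dye bias of the Rbx1 probe and a lasting effect cannot be told apart. Cul3, of the same list, was not called at any time (-0.072, 0.031, 0.076 and 0.033). Of 18 tested redox enzymes of other kinds, 1, 3, 5 and 1 were called higher and 2, 3, 3 and 0 lower at the 4 times, beside the same shares of all probes called higher and lower. Blvra, the other biliverdin reductase, was lower at 1, 3 and 7 days (-0.27, -0.16 and -0.15). Of the oxidant-producing enzymes tested, 1 of 11, 2 of 11, 2 of 11 and 1 of 9 were called higher and 0, 1, 2 and 0 lower, against those same shares. The largest change among them was in Ncf4, a subunit of the phagocyte NADPH oxidase, at -0.63 at 3 days (adjusted p = 0.00151) and -0.78 at 7 days (0.000321), at the times when Kupffer cell and leukocyte markers were lower.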

How the data were processed

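Total RNA pools were hybridised to 2-colour Agilent mouse arrays, control in Cy3 and treated in Cy5 on all 12 arrays. The scanner files hold intensity values that the authors obtained with Agilent Feature Extraction (10.10.1 in the submitters' processing notes; 10.7.3.1 for 14 days and 10.10.1.1 for the others in the file headers), already background-subtracted and dye-normalized. The deposited value table holds log2 ratios and equalled the scanner's own log10 ratio within 1.4e-06 after change of base. The deposited intensities were used without further scaling. Flagged spots were left out, spots of a probe were averaged, and a probe was tested where it was above background in both channels (at least 50% of its spots) on all arrays compared. Probes were named through RefSeq accessions of the newer annotation release, then of the older, as 8588 accessions differed between them.

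Group means and differences were fitted over 12 arrays with limma 3.58.1 in R 4.3.3 (lmFit, eBayes), two-sided, with Benjamini-Hochberg adjustment over all probes tested. The fit was run on simulated data with independent noise on each array. These data lacked the correlation between same-numbered arrays described below, so they cannot show how the p-values behave under it. Values on each array are given for genes called in any of the 8 comparisons, for the 2 highest and 2 lowest means of each treatment, and for 14 regulators and textbook targets. The genes and lists were chosen with earlier results of these data known. The values of a single gene of the marker lists are not reported here. Channel levels were set on one scale by Aquantile normalization. The number of arrays, 3 a group, limits the precision. Nothing in the labels says more about the pools than the methods do. The p-values measure the spread between pools, except where a replicate block takes part of that spread out.

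Replicate numbers were checked for pairing. Deviations of the log2 ratio from the group mean, over 18411 probes, correlated between same-numbered arrays of 1, 3 and 7 days at 0.37 to 0.65 in all 9 pairs, and those of the control channel at 0.32 to 0.67 (treated channel: -0.30 to 0.18). Same-numbered arrays of 14 and 7 days correlated more weakly, but above 0 in all 3 pairs (log2 ratio, 0.035 to 0.29). Different-numbered arrays of 1, 3 and 7 days gave -0.43 to 0.053, and different-numbered pairs with 14 days were not calculated. Whether the same control RNA was used at several times is not given in the sources used here. Alternatives were other scalings, normexp (offset 50) with loess, the deposited log ratio, no filter, flagged spots kept, each group alone, each array left out, replicate or slide as a block, the mean of a gene's probes, a threshold of 0.01 and the methods' t-test.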

Additional observations from a re-analysis of the deposited data

Results flagged for a closer look

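Differences between treatments in the same contrast drew attention for 7 genes, each by limma's test of the difference itself. Between 7 days and 1 day of MgH2 the log2 differences were 0.83 for Hmox1, 0.51 for Nqo1, 0.22 for Hmox2 and -0.32 for Keap1. Hmox1 and Nqo1 were below 0 on all 3 arrays of 1 day and above 0 on all 3 arrays of 7 days. Between 14 days of H2-water and 7 days of MgH2 they were -0.52 for Hmox1, 0.59 for Ucp2, 0.42 for Pgd, 0.28 for Taldo1 and 0.29 for Keap1, a comparison in which agent, route, duration, mice and slide all changed together. All 5 calls of that comparison were lost without one array or another, and that of Hmox1 without any of the 6.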

How the results depend on the processing

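No called direction reversed under any alternative. The deposited log ratio and keeping set-aside spots called all 45 of the 45 gene and comparison pairs called. Channel totals kept 41, array medians 44 and normexp with loess 39. The mean of a gene's probes kept 39, no filter 30, and a fit of the compared arrays alone 6. The replicate block and slide as a random block kept all 45. Both called more probes at 1 day (2967 and 3046) than the fit without a block (1846). The estimated correlation of arrays within a slide was negative (-0.0801). Keeping all 45 under these blocks therefore says little about how firm the calls are. Slide as a fixed block kept 0 of the 4 calls of 7 days minus 1 day.

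At 1 day, where 5 genes were called, the count was 11 with normexp and loess, 1 without the filter, 0 with the compared arrays alone, 8 with the replicate block, 9 with that block over the MgH2 arrays (chosen after seeing the data), 1 at a threshold of 0.01 and 0 by the methods' t-test after adjustment (5 before). For 3 days (13) it was 7 without the filter, 0 with the compared arrays alone, 6 at 0.01, and 6 by the methods' t-test, 0 after adjustment. For 7 days (17) it was 5 with the compared arrays alone, 10 at 0.01 and 0 by the adjusted t-test (12 before). For 14 days (1) it was 4 with normexp and loess, 0 with the compared arrays alone, 2 with the replicate block, 2 with slide as a random block and 0 by the adjusted t-test. For 3 days minus 1 day (0) the block over the MgH2 arrays gave 1. For 7 days minus 1 day (4) the count was 1 without the filter, 1 with the compared arrays alone, 9 with either replicate block, 8 with slide as a random block, 0 with slide as a fixed block and 0 at 0.01. For 14 days minus 7 days (5) it was 0 with the compared arrays alone, 8 with the replicate block and 0 at 0.01.

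Leaving out each array in turn gave 0 to 2 calls at 1 day, 5 to 11 at 3 days, 9 to 12 at 7 days and 1 at 14 days, and 1 to 2 for 7 days minus 1 day and 0 to 4 for 14 days minus 7 days. The lowest counts came without replicate 2 at 1 and 3 days and without replicate 3 at 7 days. With the block over the MgH2 arrays, 37 of 39 calls were kept, Nqo1 at 1 day and Hmox1 at 3 days being lost. The fit pools the spread over all groups, and with 3 arrays a group alone little passes. Signal near background limits Slc7a11, which has no usable ratio.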
